A study of Mus musculus with 58 samples.

Results

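Collagens and laminins are the structural proteins of the extracellular matrix, and the 52 genes described here are those whose symbol begins like that of a collagen chain (Col, a number, a and a number) or a laminin chain (Lam, a letter from a to c and a number). The data came from RNA-sequencing of a pair of brain regions, entorhinal cortex (EC) and primary visual cortex (PVC), of *APOE* targeted replacement mice, in which human *APOE* stands in place of the mouse gene under the mouse promoter. In each region there were libraries from 10 *APOE3/3* and 19 *APOE3/4* mice, all males on a C57Bl/6 background aged 14 to 15 months, and the 29 animal numbers were the same in both regions. The mice of the study, over all its experiments, came from more than one colony, and which sequenced mouse came from which colony was not analysed here. Each region has a table with 1 value per gene that was used, the authors' mean over all its libraries of counts divided by size factors, called the mean normalized count below.

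Because both genotypes were pooled in this mean, the values compare the EC with the PVC and not *APOE3/4* with *APOE3/3* mice, a comparison that was not analysed here. Values of single animals were not used, and therefore no spread between mice, no interval and no test can be given for any value, and every difference below is a description of a pair of means. A gene was kept if its mean normalized count was 10 or more in both regions, which 15642 of the 31246 genes listed reached. Of 54 symbols of the collagen or laminin form, 52 reached it. One of these, *Col4a3bp*, encodes a ceramide transfer protein that is named for binding a collagen chain, which leaves 40 collagen and 11 laminin chains. A chain listed under a symbol of another form is not included.

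Collagens are built from 3 chains wound into a triple helix. Each chain repeats the triplet Gly-X-Y, since only glycine is small enough to face the axis of the helix. Fibrillar collagens (types I, II, III, V, XI, XXIV and XXVII) form long fibrils and in the brain are found mostly in the meninges and around large vessels. Collagen IV and the laminins, which are cross-shaped trimers of an alpha, a beta and a gamma chain, form the sheets of basement membranes around brain capillaries and under the pia. Some collagens have other sites, such as the membrane collagens XIII, XXIII and XXV, which neurons can make.

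The triplet can be read directly in the genes, and coding exons are shown here for the chains at either end of the regional ratios (*Col23a1* and *Col24a1*), for the most abundant fibrillar chain (*Col5a1*), for an abundant membrane collagen (*Col25a1*), for a chain of the main fibrillar collagen (*Col1a1*) and for a chain of collagen IV (*Col4a1*). Each is the first coding exon of whole triplets and at most 108 bases inside the longest Gly-X-Y run, read from the NCBIM37 genome on the strand of the gene. Capitals mark the glycine codon of every triplet. The exons are coding exon 5 of *Col23a1* at chr11:51341370-51341396 (plus strand), coding exon 7 of *Col24a1* at chr3:144991695-144991748 (plus strand), coding exon 15 of *Col5a1* at chr2:27820771-27820824 (plus strand), coding exon 9 of *Col25a1* at chr3:130179287-130179394 (plus strand), coding exon 7 of *Col1a1* at chr11:94801011-94801055 (plus strand) and coding exon 3 of *Col4a1* at chr8:11247006-11247095 (minus strand).
Col23a1: GGGcaatcaGGAcgagatGGCtacccg
Col24a1: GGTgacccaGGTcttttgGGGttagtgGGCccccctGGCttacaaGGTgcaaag
Col5a1: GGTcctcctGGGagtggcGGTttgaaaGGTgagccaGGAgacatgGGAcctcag
Col25a1: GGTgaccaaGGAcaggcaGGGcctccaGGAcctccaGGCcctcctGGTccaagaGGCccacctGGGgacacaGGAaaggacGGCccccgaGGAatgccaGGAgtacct
Col1a1: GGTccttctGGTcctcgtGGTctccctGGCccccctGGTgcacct
Col4a1: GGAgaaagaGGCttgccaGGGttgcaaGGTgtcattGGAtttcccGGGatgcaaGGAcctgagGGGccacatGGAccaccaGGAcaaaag

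All 40 collagen chains have runs of 5 or more Gly-X-Y triplets in their longest annotated coding sequence, and none of the 11 laminin chains has one. In the 11 fibrillar chains the longest run spans 648 to 1032 residues, and these chains have only 2 or 3 runs. The 6 chains of collagen IV have helices of a different build, with 22 to 27 shorter runs, the longest of them 117 to 198 residues. The exons carry the same period. Of the 510 coding exons that lie wholly inside a run of a fibrillar chain, 302 are exactly 54 bases long, which is 6 triplets as in the *Col24a1* and *Col5a1* exons above, and 508 are a multiple of 9 bases. In collagen IV 12 of 129 such exons are 54 bases long. The 3 membrane collagens are short, at 532 residues for *Col23a1*, 666 for *Col25a1* and 751 for *Col13a1*.

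**Figure D1:**
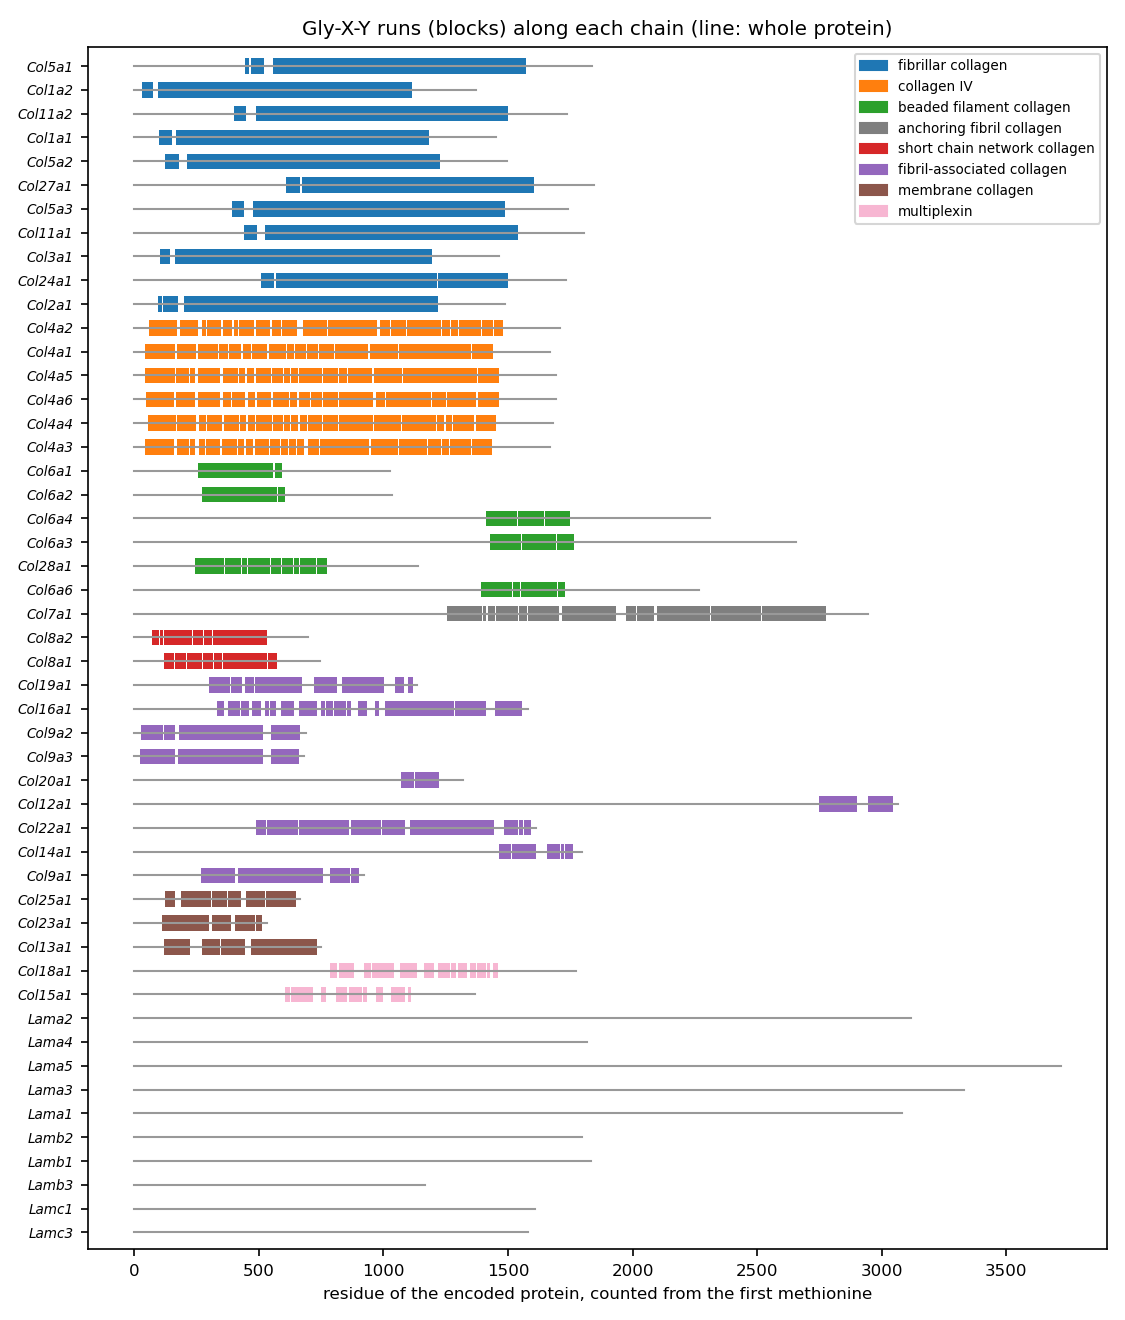
Position of Gly-X-Y runs of 5 or more triplets (coloured blocks, by class) along each encoded protein (grey line, in residues from the first methionine) for 50 of the 51 chains. Fibrillar chains have an unbroken block of 648 residues or more, the 6 collagen IV chains have 22 to 27 blocks, and the 10 laminins drawn have none.

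Laminin chains are rich in cysteine in place of glycine triplets, with 2.59% to 6.98% cysteine residues against 0.27% to 2.14% in the collagens. The cysteines pair up inside rows of small epidermal growth factor-like modules that stiffen the arms of the laminin cross. This is shown for *Lamb1*, the laminin chain whose regional values differed most, by a cysteine-rich coding exon of 189 bases, coding exon 9 at chr12:31972281-31972469 (plus strand). Capitals mark its 8 whole cysteine codons.
Lamb1: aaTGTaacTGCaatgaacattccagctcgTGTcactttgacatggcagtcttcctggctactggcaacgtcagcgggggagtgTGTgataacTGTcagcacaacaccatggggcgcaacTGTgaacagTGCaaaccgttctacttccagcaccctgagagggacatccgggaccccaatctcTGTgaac

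The level of a chain is given as its mean normalized count per kilobase of the transcript with the longest coding sequence, since longer transcripts collect more reads. Levels ranged over more than 2 orders of magnitude in each region. In the EC *Col25a1* was highest at 1182 per kilobase, followed by *Col6a1* at 970 and *Col4a2* at 750. *Col23a1* at 601 and *Col4a1* at 510 completed the 5 leading chains, which held 43.3% of the summed level of the 51 chains. *Col6a2* (476), *Col19a1* (452) and *Col16a1* (410) came next. Fibrillar chains were not among these 8, the highest of them being *Col5a1* at 260 and *Col1a2* at 251 per kilobase in the EC.

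In the PVC *Col6a1* was highest at 760 per kilobase, with *Col4a2* at 358, *Col25a1* at 356, *Col5a1* at 331 and *Col19a1* at 272 next, and these 5 held 46.0% of the sum. *Col6a2* (260) and *Col4a1* (245) followed. The order was alike in the regions, with a Spearman rho of 0.892 across the 51 chains, which come from the same mice and share their transcript lengths. *Col23a1* and *Col5a1* moved most among the leading chains, from the 4th place in the EC to the 13th in the PVC and from the 13th to the 4th. The lowest chains were *Col4a3* and *Col4a4*, which form the collagen IV of kidney and inner ear, at 2.37 and 2.39 per kilobase in the EC, against 1.40 and 1.56 in the PVC. The length used bears on the order. By the union of all annotated exons, *Col25a1* is the 7th in the EC and the 11th in the PVC. Its share of the PVC sum is then 2.75% in place of 7.89%. By coding length *Col23a1* is the highest in the EC and the 8th in the PVC.

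**Figure D2:**
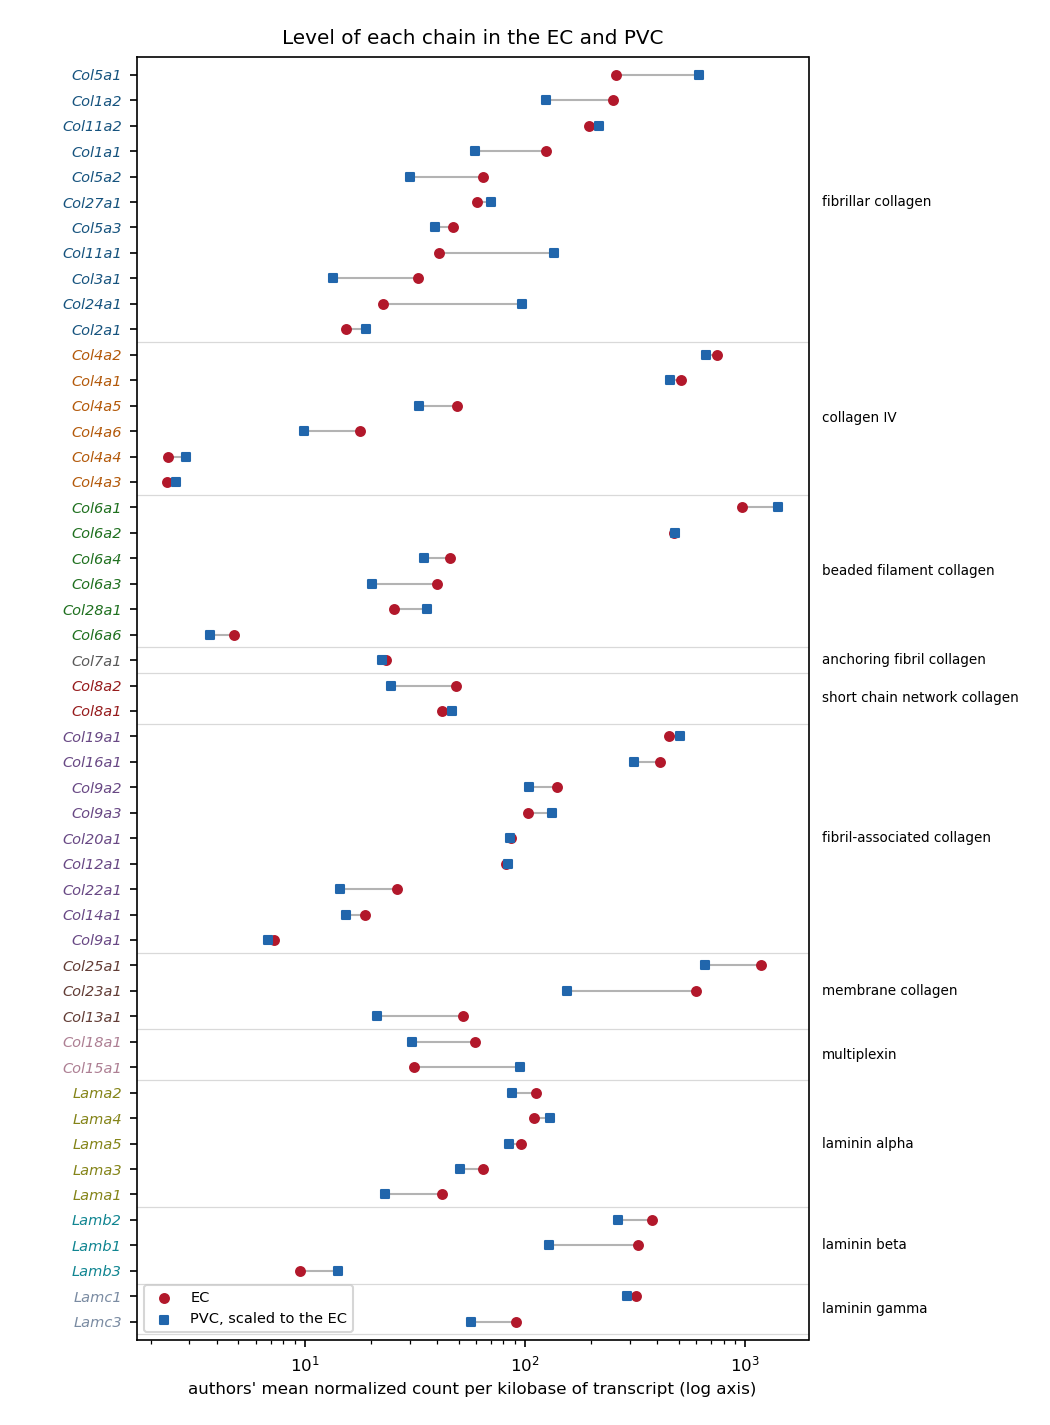
Level of 50 of the 51 chains as the authors' mean normalized count per kilobase of transcript (log axis), by class, in the EC (red circles) and in the PVC multiplied by 1.86 (blue squares). Wide gaps are seen for *Col24a1*, *Col11a1* and *Col15a1*, with the PVC higher, and for *Col23a1* and *Lamb1*, with the EC higher.

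To set the regions side by side, each ratio of EC over PVC was divided by 1.86, the median ratio over the 15642 genes kept, because the regions were normalized separately and their mean normalized counts sum to 49385488 and 27058393. On this scale the median gene is at a log2 ratio of 0, and where a pair of counts is given below, the EC comes before the PVC. As deposited, without scaling, only *Col24a1*, *Col11a1*, *Col15a1* and *Col5a1* of the 52 genes had the larger value in the PVC, so the sign of every other ratio below 0 turns without the scaling. Of the 52 genes, 15 were over 1.5-fold higher in the EC and 4 were over 1.5-fold higher in the PVC, and 33 lay between. Of all genes kept, 6.78% were over 1.5-fold higher in the EC, compared with 5.38% in the PVC. The 51 chains had a median log2 ratio of 0.19, from −2.11 for *Col24a1* to 1.96 for *Col23a1*. With the minimum raised to 100 in both regions the counts were 9 and 4 of 38, against 3.79% and 4.55% of such genes. *Col4a3bp*, the one that is no chain, had a log2 ratio of 0.04.

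**Figure D3:**
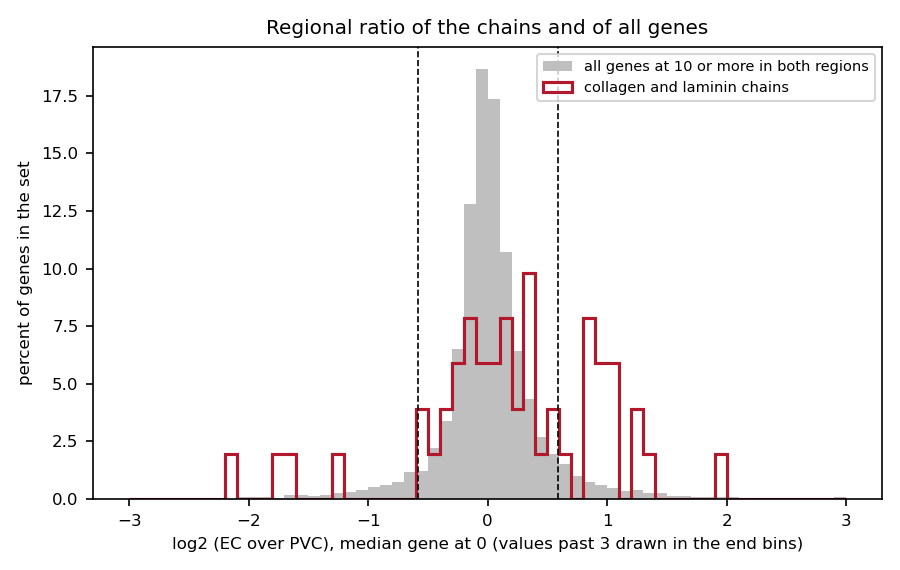
Distribution of the log2 ratio of EC over PVC for all 15642 genes kept (grey) and for the 51 chains (red line), in percent of each set per bin, with dashed lines at 1.5-fold. Of the chains 15 lie past the right line and 4 past the left.

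The tissue means hold all cells of a region, so fewer cells of a type and less RNA per cell cannot be told apart. Neuronal transcripts were abundant in both regions, with *Snap25* of the synaptic vesicle release machinery at 112526 in EC and 88658 in PVC (log2 ratio −0.55). Of 6 neuron markers listed 5 were found, and *Snap25* had the lowest ratio of these and *Slc17a7* the highest (0.14). Meningeal fibroblasts, which make fibrillar collagens, were represented by 10 marker genes. All 10 were measured in both regions, none was at 0, and 9 of 10 were over 1.5-fold higher in the EC, with a summed mean normalized count of 16996 (EC) and 3896 (PVC) (log2 ratio of the sums 1.23). The markers reached from 0.34 for *Igfbp2* to 3.07 for *Dcn*, which encodes the collagen-binding proteoglycan decorin. Among all 15642 genes kept, 6.78% were past this limit in the EC and 5.38% in the PVC, and 13740 lay between. All 9 endothelial markers lay within 1.5-fold, with a log2 ratio of the sums of 0.06, and 1 of 8 mural cell markers did not. All 6 oligodendrocyte markers were over 1.5-fold higher in the PVC, with a log2 ratio of the sums of −1.37. The medians of the astrocyte, microglia and neuron markers were 0.24, 0.04 and −0.24. Of 8 choroid plexus markers 6 reached 10 in both regions, and 2 of these were higher in the EC and 1, *Ttr*, in the PVC. Of 5 markers of the granule cells of the neighbouring dentate gyrus 3 reached 10 in both regions, with a median log2 ratio of 0.09. Of these, *C1ql2* (1.79) was over 1.5-fold higher in the EC, while *Prox1* was at −0.25 and *Lct* at 0.09. *Dsp* (35.7 in EC and 9.69 in PVC) and *Tdo2* (28.3 and 9.58) missed the minimum only in the PVC. Their log2 ratios of 0.99 and 0.67, both past 1.5-fold in the EC, are not in that median. The part of these differences in the results on the chains was not tested.

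**Figure D4:**
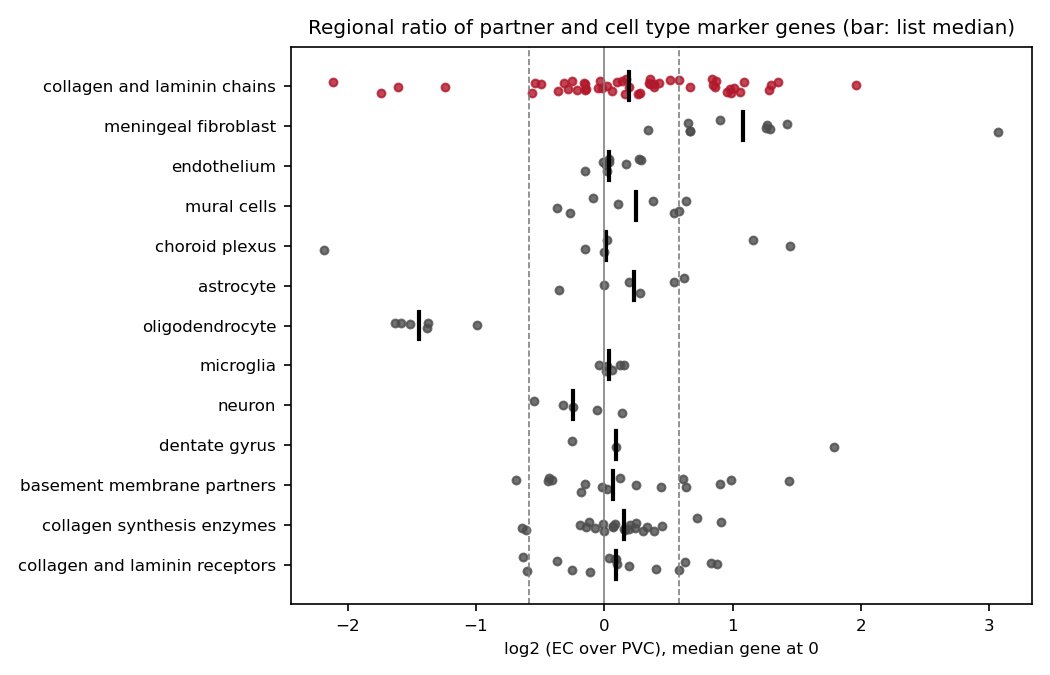
Log2 ratio of EC over PVC for the 51 chains (red), and for the marker and partner genes with a mean normalized count of 10 or more in both regions (grey), 1 point per gene, with list medians as black bars and 1.5-fold as dashed lines. Of the meningeal fibroblast markers 9 of 10 lie past the right line, and all 6 oligodendrocyte markers lie past the left.

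Fibrillar chains were found at both ends of the range. Of the 11 chains, 4 were over 1.5-fold higher in the EC, compared with 3 in the PVC. Among all genes kept, the shares were 6.78% (EC) and 5.38% (PVC). *Col1a1* and *Col1a2*, whose products make up collagen I, the main fibrillar collagen of connective tissue, had mean normalized counts of 739 and 1341 in the EC, against 191 and 358 in the PVC, with log2 ratios of 1.06 and 1.01. *Col3a1*, whose product is mixed into many collagen I fibrils, was at 182 and 40.3 (log2 ratio 1.28). *Col5a2*, a chain of the collagen V that starts such fibrils, was at 426 and 108 (log2 ratio 1.09). These 4 chains are the fibrillar chains that passed 1.5-fold in the EC, with log2 ratios of 1.01 to 1.28. Their direction, shared with the meningeal fibroblast markers (median 1.08), was thus fixed by that choice. The remaining fibrillar chains, given below, ranged from −2.11 to 0.26. A link between chains and markers was not tested.

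The other end of the range was held by 3 fibrillar chains. *Col24a1*, a minor fibrillar collagen, had a mean normalized count of 162 (EC) and 375 (PVC) and was 4.31-fold higher in the PVC on the scaled ratio, and 0.2% of the genes kept had a lower ratio. *Col11a1*, which encodes a chain of the collagen XI of cartilage, was at 313 and 563 (3.33-fold higher in the PVC). *Col5a1* was the most abundant fibrillar chain of both regions per kilobase, with mean normalized counts of 2183 and 2786 (2.37-fold higher in the PVC). *Col2a1* (−0.31), *Col27a1* (−0.21), *Col11a2* (−0.15) and *Col5a3* (0.26) lay within 1.5-fold on the log2 scale.

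The chains of collagen V were not alike. Collagen V is most often built from the products of *Col5a1* and *Col5a2*. Per kilobase *Col5a1* exceeded *Col5a2* by 2.01 (EC) and 4.35 (PVC) on the log2 scale. *Col11a1* was below *Col11a2* by a log2 difference of −2.26 in EC and −0.67 in PVC. In contrast, *Col1a1* and *Col1a2* kept their proportion, with log2 differences of −1.01 (EC) and −1.06 (PVC). The size of this difference rests on the length used, since by the union of exons the chains were level, at 1.56% and 1.53% of the sum over all chains in the EC and 0.793% and 0.805% in the PVC.

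**Figure D5:**
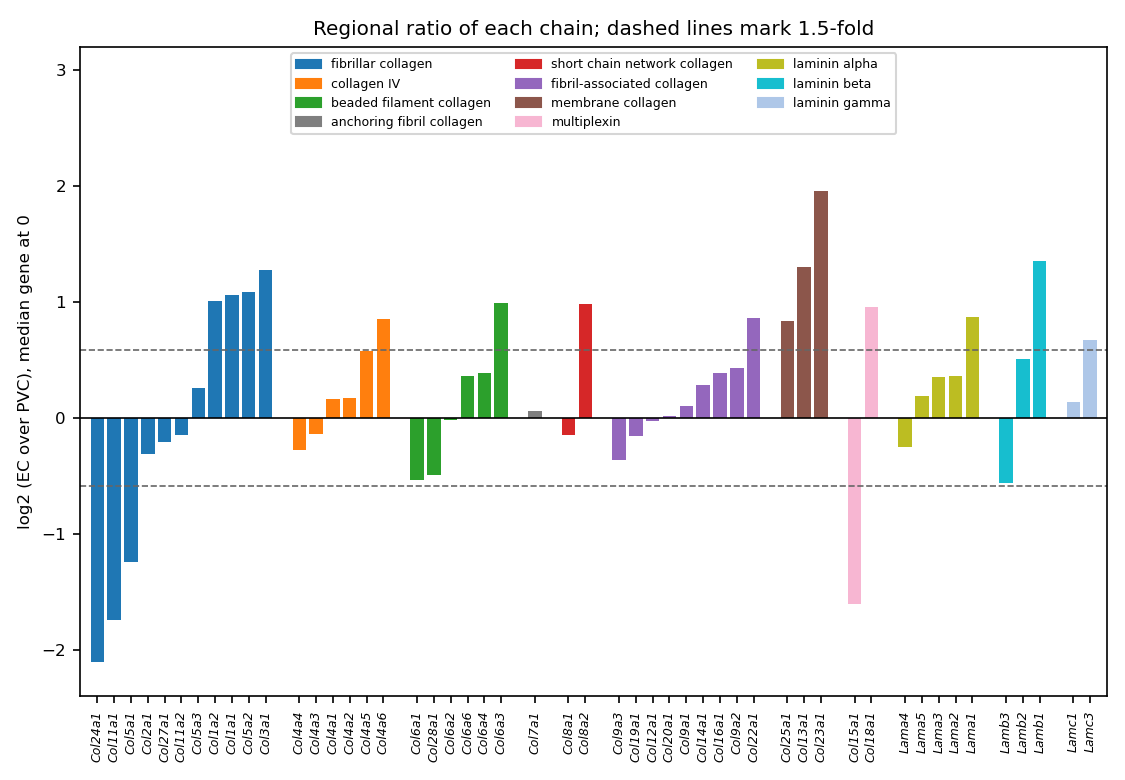
Log2 ratio of EC over PVC of 50 of the 51 chains (bars, median gene at 0), by class, with dashed lines at 1.5-fold. Fibrillar chains reach from −2.11 to 1.28, the 3 membrane collagens are all above the upper line, and *Col4a1* and *Col4a2* lie near 0.

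Collagen IV is the mesh of basement membranes, and its common form is built from the products of *Col4a1* and *Col4a2*. Both were abundant and nearly even between the regions. *Col4a1* had mean normalized counts of 3374 in EC and 1621 in PVC (log2 ratio 0.16), and *Col4a2* of 4837 and 2309 (log2 ratio 0.17). Their proportion per kilobase was nearly the same, with a log2 difference of *Col4a1* from *Col4a2* of −0.56 (EC) and −0.55 (PVC). The genes lie head to head on chromosome 8 of NCBIM37, from 11198423 to 11312826 for *Col4a1* and from 11312805 to 11449287 for *Col4a2*, so that their annotated ends overlap. The endothelial markers had log2 ratios of −0.15 to 0.29, and a link between them and these chains was not tested.

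The minor chains of collagen IV are also arranged as head-to-head pairs. *Col4a5* had mean normalized counts of 322 and 116 (log2 ratio 0.58, short of 1.5-fold) and its neighbour *Col4a6* of 119 and 35.5 (log2 ratio 0.85, past it), 1308 bases apart on chromosome X. *Col4a3* and *Col4a4* on chromosome 1 were the members nearest above the minimum, at 20.3 and 18.7 in the EC, against 12.01 and 12.21 in the PVC, with log2 ratios of −0.14 and −0.28. Their annotated starts are 71 bases apart, at chr1:82583425-82583495, and the interval is shown because the pair had nearly the same level in each region. It is given on the plus strand, with no part marked.
Col4a4 to Col4a3: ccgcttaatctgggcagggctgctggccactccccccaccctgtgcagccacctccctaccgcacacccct

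Laminins join collagen IV in basement membranes, with nidogen and perlecan as links. Of the 11 laminin chains, 3 were over 1.5-fold higher in the EC and 0 in the PVC, and their median log2 ratio was 0.35. Among all genes kept, 6.78% (EC) and 5.38% (PVC) passed this limit. *Lamb1*, the beta chain of many laminins of developing and adult tissue, differed most, with mean normalized counts of 1894 in EC and 399 in PVC (2.56-fold on the scaled ratio, log2 ratio 1.35). *Lamb2*, the beta chain of mature vessels and synapses, had 2135 and 806 (log2 ratio 0.51). Per kilobase *Lamb1* made up 45.7% of the summed beta chains in the EC, against 31.4% in the PVC. *Lamb3*, a chain of skin laminin, was low, at 39.2 and 31.1 (log2 ratio −0.56).

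Of the gamma chains, *Lamc1*, which nearly all basement membrane laminins contain, had 2434 and 1190 (log2 ratio 0.14). *Lamc3* was at 533 and 181 (log2 ratio 0.67). Per kilobase *Lamb1* was level with *Lamc1* in the EC (log2 difference 0.04) and below it in the PVC (−1.18), and by coding length it was below *Lamc1* in both (−0.55 and −1.77).

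The alpha chains decide which cells a laminin binds. *Lama2*, which astrocyte endfeet and vessel walls contribute, had mean normalized counts of 1087 and 457 (log2 ratio 0.36). *Lama4* and *Lama5*, the alpha chains of endothelial basement membrane, had 664 and 424 (log2 ratio −0.25), and 1094 and 518 (log2 ratio 0.19). *Lama1*, a chain of the pial basement membrane, was at 402 and 119, the only alpha chain past 1.5-fold (log2 ratio 0.87). *Lama3* was at 671 and 283 (log2 ratio 0.35). Per kilobase *Lama2* led the alpha chains in the EC with 26.3% of their sum, and *Lama4* led in the PVC with 34.6%. This order rests on the length used: by coding length *Lama4* led in both regions, and by the union of exons *Lama2* led in both.

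The membrane collagens span the cell membrane with their helix outside the cell. Their 3 measured chains were all over 1.5-fold higher in the EC, against 6.78% of all genes kept. *Col23a1* had mean normalized counts of 3402 in EC and 472 in PVC, a scaled ratio of 3.88-fold that exceeded that of 99.6% of the genes kept. *Col13a1*, known at the neuromuscular junction, had 154 and 33.7 (2.46-fold). *Col25a1*, whose shed product was found in amyloid plaques of Alzheimer's disease brain, had 3101 and 935 (1.79-fold). A further membrane collagen, *Col17a1*, missed the minimum in the PVC, at 38.8 (EC) and 8.20 (PVC). The only other symbol that missed it, *Col10a1* of growth plate cartilage, had 50.4 in EC and 2.84 in PVC. Both were kept out by their value in the PVC, and their scaled ratios of 2.55-fold and 9.56-fold are therefore not in the counts given above.

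The chains of collagen VI, which forms beaded filaments beside basement membranes, were split. *Col6a1* was the highest of all chains in the PVC, with mean normalized counts of 3979 (EC) and 3116 (PVC) (log2 ratio −0.54). *Col6a2* had 1880 and 1026 (log2 ratio −0.02), and *Col6a3*, whose product completes the common trimer, had 351 and 95.0 (log2 ratio 0.99). Per kilobase *Col6a1* exceeded *Col6a3* by 4.60 (EC) and 6.13 (PVC) on the log2 scale. *Col6a4* (0.39) and *Col6a6* (0.36) had log2 ratios within 1.5-fold, as had *Col28a1* (−0.49).

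The multiplexins, which link basement membranes to the tissue around them, differed in direction. *Col18a1*, the source of the fragment endostatin, had mean normalized counts of 377 in EC and 104 in PVC (1.94-fold higher in the EC). *Col15a1*, its closest relative, had 162 and 266 (3.04-fold higher in the PVC). Of the short chain network collagens, *Col8a2* of corneal and vascular matrix had 211 and 57.7 (1.97-fold higher in the EC), and *Col8a1* had 215 and 128 (log2 ratio −0.15). *Col7a1*, which anchors skin to its basement membrane, was at 218 and 112 (log2 ratio 0.06).

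Fibril-associated collagens coat or bridge fibrils. Of their 9 chains, 8 lay within 1.5-fold, with a class median log2 ratio of 0.10. Of all 15642 genes kept, 13740 lay within it, a like share. The exception among the 9 chains was *Col22a1*, a collagen of tissue junctions, at 231 and 68.7 (1.81-fold higher in the EC). *Col19a1*, made by cortical interneurons, was among the abundant chains at 1930 and 1158 (log2 ratio −0.16). *Col16a1* had 2137 and 879 (log2 ratio 0.39). The chains of collagen IX were uneven in level, with *Col9a2* at 140 and *Col9a3* at 104 per kilobase in the EC and *Col9a1* at 7.27. *Col9a2* had a log2 ratio of 0.43, *Col9a3* of −0.36 and *Col9a1* of 0.10. *Col12a1* (−0.03) and *Col20a1* (0.02) had log2 ratios near that of the median gene, and *Col14a1* had 0.28.

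Genes that act with the chains were followed by lists. Of 23 collagen synthesis enzymes kept, 2 were over 1.5-fold higher in the EC, compared with 2 in the PVC, with a median log2 ratio of 0.15. Among all genes kept, the shares past this limit were 6.78% (EC) and 5.38% (PVC). *Adamts14* (32.0 in EC and 6.64 in PVC, log2 ratio 1.38) and *Lox* (23.2 and 6.82, log2 ratio 0.87) missed the minimum only in the PVC. They are therefore not among the enzymes counted, and *Loxl4* (log2 ratio 0.09) missed the minimum in both regions. *Pcolce*, the enhancer of procollagen cleavage, and *Adamts2*, a protease that trims procollagen I, had log2 ratios of 0.91 and 0.72, and *Pcolce2* and *Bmp1*, a protease that trims the other end of procollagen, of −0.64 and −0.61. Of 16 basement membrane partners, 5 were higher in the EC, compared with 1 in the PVC. Nidogen genes *Nid1* and *Nid2* had log2 ratios of 0.61 and 0.64, perlecan (*Hspg2*) of 0.44 and agrin (*Agrn*) of −0.02. *Fn1*, which encodes fibronectin, had 0.90. The largest was *Smoc1* (1.44) and the smallest *Ntn4* (−0.69).

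Of 15 receptor genes kept, 3 were over 1.5-fold higher in the EC, compared with 2 in the PVC, and the median log2 ratio was 0.09. Among all genes kept, the shares were 6.78% (EC) and 5.38% (PVC). *Itga2* (log2 ratio 0.57) missed the minimum in both regions, at 9.89 (EC) and 3.59 (PVC). *Ddr2*, a kinase that fibrillar collagens activate, had mean normalized counts of 1001 and 293 (log2 ratio 0.88), and *Mrc2*, which takes up collagen for breakdown, had 975 and 295 (log2 ratio 0.83). *Itgb1*, the common partner of collagen- and laminin-binding integrins, lay near the median gene (0.08), as did *Dag1*, which encodes the laminin receptor dystroglycan (0.12). *Itgb4* and *Itga7*, integrins that bind laminin, were higher in the PVC, at −0.63 and −0.60, although their values as deposited, like those of *Pcolce2*, *Bmp1* and *Ntn4*, were larger in the EC.

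Transcript length and gene overlap were looked at because either can move a count. Across the 51 chains the log2 ratio had a Spearman rho of 0.045 with transcript length, and across the 14125 genes kept that have a length it was 0.063. The library kit does not mark strand. *Col9a3* shares 6.1% of its exon bases with exons of another protein-coding gene, *Tcfl5*, and *Col1a1* 1.7%, while the other 49 chains share 0.3% or less.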

How the data were processed

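RNA-sequencing of poly(A)+ RNA was carried out on 29 EC and 29 PVC samples. Per the labels and the study's methods, the authors aligned reads to mm9 with TopHat2 (2.0.6) and Bowtie2 (2.0.2.0), counted them per gene with HTSeq and ran DESeq2 (1.10.1) on each region separately. In the deposited tables the signal used is baseMean, each gene's size-factor-normalized count averaged across the 29 libraries of that region. The other deposited columns hold the authors' comparison of genotypes (log2 fold change, its standard error, test statistic, p-value and adjusted p-value) and were not used, so no genotype comparison was made. Counts and depth per library were not analysed here, and the precision of each mean is unknown.

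The EC over PVC ratio of each gene was divided by the median ratio over genes with a mean normalized count of 10 or more in both regions, with no pseudocount, and 1.5-fold was taken as the limit, with no test. Levels per kilobase used, for each gene, the GENCODE vM1 transcript (NCBIM37) with the longest coding sequence. Sequences, exons and Gly-X-Y runs were read from the same genome and transcripts. The scaling and the 1.5-fold calls were checked on simulated data, and the other steps were not. All steps were run with Python 3.11.15, numpy 2.4.6, pandas 2.3.3 and scipy 1.17.1. Values are given in full for the 8 highest chains per kilobase in each region, the 5 largest and 5 smallest ratios, chains of known trimers and those nearest the minimum of 10. One of the chains is counted in the summaries but its own values are not reported here. The members, the gene lists and the limits were chosen with earlier results of these data known.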

Additional observations from a re-analysis of the deposited data

How the results depend on the processing

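The scaling between the regions decided how many genes passed 1.5-fold. Without it 43 of the 52 genes were higher in the EC and 3 in the PVC, and their median log2 ratio was 1.07, but 88.3% of all genes were then higher in the EC too. With a minimum of 100 in both regions 9 of 38 genes were higher in the EC, and with a 2-fold limit 7 of 52, with 4 in the PVC under each. Of all genes kept, 2.66% (EC) and 2.12% (PVC) passed the 2-fold limit. The other alternatives (scaling by the sum of all values, a median over genes at 100 or more, a pseudocount of 10) gave 15 or 16 in the EC and 4 or 5 in the PVC. The share of the 5 leading chains was 49.7% (EC) and 45.7% (PVC) by coding length and 43.1% and 49.5% by the union of exons. Both lengths were chosen after seeing the data, since the planned protein lengths were not used here.

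No paired analysis was possible because 1 mean per gene and region was used, in which all animals and both genotypes are pooled. Leaving out single animals was not run for the same reason, and no spread between animals, interval or p-value is given.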
